A study of Mus musculus with 5 samples.

Results

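The genes described here encode the subunits of oxidative phosphorylation, the respiratory chain of the inner mitochondrial membrane together with ATP synthase. They were chosen by symbol: the protein-coding genes of mitochondrial DNA (mt-Nd, mt-Co, mt-Cytb and mt-Atp) and the nuclear genes whose symbols start with Ndufa, Ndufb, Ndufc, Ndufs or Ndufv, Uqcr, Cox4 to Cox8 or Atp5, plus Sdha to Sdhd. The rule took 105 of the 17389 genes in the count matrix, 13 of them mitochondrial-encoded and 92 nuclear-encoded, and used no measured value. The pattern for complex I also caught 8 Ndufaf assembly factors, which are not subunits, and Ndufb1-ps, which the annotation lists as a non-coding RNA. The other classes were 7 core and 30 supernumerary subunits of complex I, 4 genes of complex II, 8 of complex III, 18 of complex IV and 17 of complex V.

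The kidneys of adult FVB/Ant mice had been dissociated and sequenced as single cells, giving 14197 cells in 5 libraries. Knockout (KO) mice carry a double STOP signal placed by CRISPR after the start codon of Fame (ccdc198 in the matrix), in every cell of the animal, and wild type (WT) mice do not. The WT female, KO female and KO male libraries belong to run 2 of the annotation. The WT mix and KO mix libraries, which pool the sexes, belong to run 3. The annotation does not say whether a run is a batch of sequencing or of cell preparation. Run and pooling of the sexes cannot be told apart, and the number of mice and their age are not given in the labels. The edit leaves the mRNA in place, and ccdc198 stood at 196 and 71.5 CPM, the share of a library's UMIs on a ppm scale, in the WT female and WT mix libraries and at 148, 127 and 83.1 CPM in the KO female, KO male and KO mix libraries, so its level does not check the genotype. Libraries held 1794 to 3567 cells and 9791091 to 15950717 UMIs, that is, counted RNA molecules. Of 62 marker genes listed for 16 cell types, 58 were highest in their own type. The exceptions were Cyp7b1, Plat, Pax8 and Wt1. In all, 25 cell barcodes occurred in more than 1 library.

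Oxidative phosphorylation passes electrons from NADH (complex I) and succinate (complex II) through complex III and cytochrome c to oxygen at complex IV, and ATP synthase (complex V) uses the proton gradient this builds. Mitochondrial DNA is transcribed from both strands into long precursors that are cut into mRNAs. All subunits of complex II and most subunits of the other complexes come from the nucleus instead. Tubule cells of the kidney, above all those of the proximal tubule, the thick ascending limb and the distal convoluted tubule, are rich in mitochondria because they pump sodium.

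Of the 13 mitochondrial genes, 12 lie on the plus strand and mt-Nd6 on the minus strand. A pair of them is shown here because they differed most in direction from the other mitochondrial genes in the results that follow. Each shares its end with the start of the next reading frame, and the shared bases are in capitals (GRCm38, plus strand). The mt-Atp8 gene, for a small subunit of the membrane part of ATP synthase, lies at chrM:7766-7969 and shares 43 bases with mt-Atp6. The mt-Nd4l gene, for a small membrane subunit of complex I, lies at chrM:9877-10173 and shares 7 bases with mt-Nd4.
mt-Atp8: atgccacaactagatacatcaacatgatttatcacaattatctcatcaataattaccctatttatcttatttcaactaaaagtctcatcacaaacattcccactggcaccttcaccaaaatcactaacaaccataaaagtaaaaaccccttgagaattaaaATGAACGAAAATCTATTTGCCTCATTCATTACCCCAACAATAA
mt-Nd4l: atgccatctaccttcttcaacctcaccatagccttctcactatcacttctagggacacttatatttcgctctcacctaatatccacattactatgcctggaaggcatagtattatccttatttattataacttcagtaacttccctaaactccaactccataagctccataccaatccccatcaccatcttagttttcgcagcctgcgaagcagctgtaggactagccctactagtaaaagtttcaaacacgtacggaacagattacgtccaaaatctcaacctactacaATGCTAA
Reads from such a shared stretch cannot be given to 1 gene alone. Both genes are short, with 204 and 297 annotated bases, and neither is read here as a separate mRNA.

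Promoters of the nuclear members were read from RefSeq sequences (GRCm38.p6), which held 74 of the 92 genes. The 250 bases before the start were searched on both strands for GCGCA followed by any base and GCGC, a motif of the factor NRF1, and CCGGAAG, a core of ETS factors such as GABP. Each motif was found in 13 of the 74 promoters (17.6%), against 3.86% and 7.05% of 27025 promoters of the same length. The estrogen-related receptor letters TCAAGGTCA stood in 1.35% of members and 0.366% of all promoters, CCAAT in 44.6% and 34.5%, and TATAAA in 8.11% and 13%. Promoters of Atp5h, Cox6a1 and Sdhd held both the NRF1 and the ETS letters. The windows of Cox6a1, a subunit of complex IV (chr5:115348959-115349208, minus strand), and Sdhd, a membrane anchor of complex II (chr9:50603850-50604099, minus strand), are shown with these matches in capitals.
Cox6a1: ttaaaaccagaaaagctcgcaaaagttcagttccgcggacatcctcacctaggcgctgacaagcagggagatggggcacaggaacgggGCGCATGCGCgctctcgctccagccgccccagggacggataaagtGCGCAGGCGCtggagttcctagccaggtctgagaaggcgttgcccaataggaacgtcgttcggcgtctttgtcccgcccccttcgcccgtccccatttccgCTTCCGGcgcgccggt
Sdhd: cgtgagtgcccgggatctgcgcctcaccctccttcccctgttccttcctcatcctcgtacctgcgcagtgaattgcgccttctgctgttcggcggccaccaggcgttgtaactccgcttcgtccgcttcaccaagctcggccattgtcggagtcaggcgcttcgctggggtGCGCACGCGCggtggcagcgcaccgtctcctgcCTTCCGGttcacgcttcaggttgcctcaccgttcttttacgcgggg
A match of letters is a description of the sequence and not a measured binding site.

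The mitochondrial-encoded mRNAs took a large part of all UMIs. Their share was 15.8% in the WT female, 16.3% in the KO female and 17.2% in the KO male library, and 27.9% and 29.0% in the WT mix and KO mix libraries. The nuclear-encoded members took 7.73%, 7.65% and 7.08% in the first 3 and 5.07% and 5.25% in the mix libraries. The 13 mitochondrial members are the same genes that make up the annotated mitochondrial percentage of each cell, by which cells over 50% had been removed. Cells over 25% made up 17.3 to 20.8% of the single-sex libraries and 56.9 to 60.5% of the mix libraries.

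Across the 10 cell types with at least 20 cells in every library, cells of the distal convoluted tubule (DCT) and the loop of Henle (LOH) held the largest nuclear-encoded share of the UMIs that come from the nuclear genome. Counted in this way, so that the mitochondrial mRNAs do not dilute it, the share in DCT was 13.4% (WT female), 10.4% (WT mix), 13.5% (KO female), 13.8% (KO male) and 10.6% (KO mix). In LOH it was 12.4%, 10.7%, 12.4%, 12.8% and 10.9% in the same order. These types held the 2 highest ranks in all 5 libraries. DCT led in every run 2 library and LOH in both run 3 libraries, so their order changed with the run. Glomerular endothelial cells (GL endo) were lowest in all 5 libraries, with 2.71 to 5.10%. As a share of all UMIs the order differed in the mix libraries, where PT1 led with 7.68% and 7.61%. The other proximal tubule cells lay between, and differed among themselves.

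The cluster PT1, a proximal tubule group that the study leaves without a segment name, combined a high nuclear-encoded with a low mitochondrial-encoded share. The study regressed out mitochondrial gene content before clustering and made the clusters from these same cells and genes. The shares of the clusters are therefore a description. Its nuclear-encoded share of nuclear UMIs was 11.2%, 9.18%, 11.4%, 9.60% and 9.43% in the order given above, at rank 3 or 4 of the 10 types. Its mitochondrial-encoded share was 9.49%, 16.3%, 9.91%, 11.1% and 19.3% of all UMIs, at ranks 8 to 10. PT1 cells held a median of 1346 to 1770 UMIs, and Malat1, a nuclear RNA whose loss or excess is read as a sign of RNA quality, took 0.207 to 0.615% of their UMIs against 1.46 to 5.35% in PTs, and the part of either in these shares was not tested. The second unnamed group, PT2, stood the other way round. PT2 had the highest mitochondrial-encoded share of the 10 types in the single-sex libraries (25.9%, 22.6% and 29.2%) and a nuclear-encoded share of nuclear UMIs of only 6.24 to 7.32%. Over the 10 types the rank correlation between both shares was 0.16 to 0.19 in the run 2 libraries and 0.67 to 0.73 in the run 3 libraries, as a description, since all types of a library share its depth and handling.

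**Figure D1:**
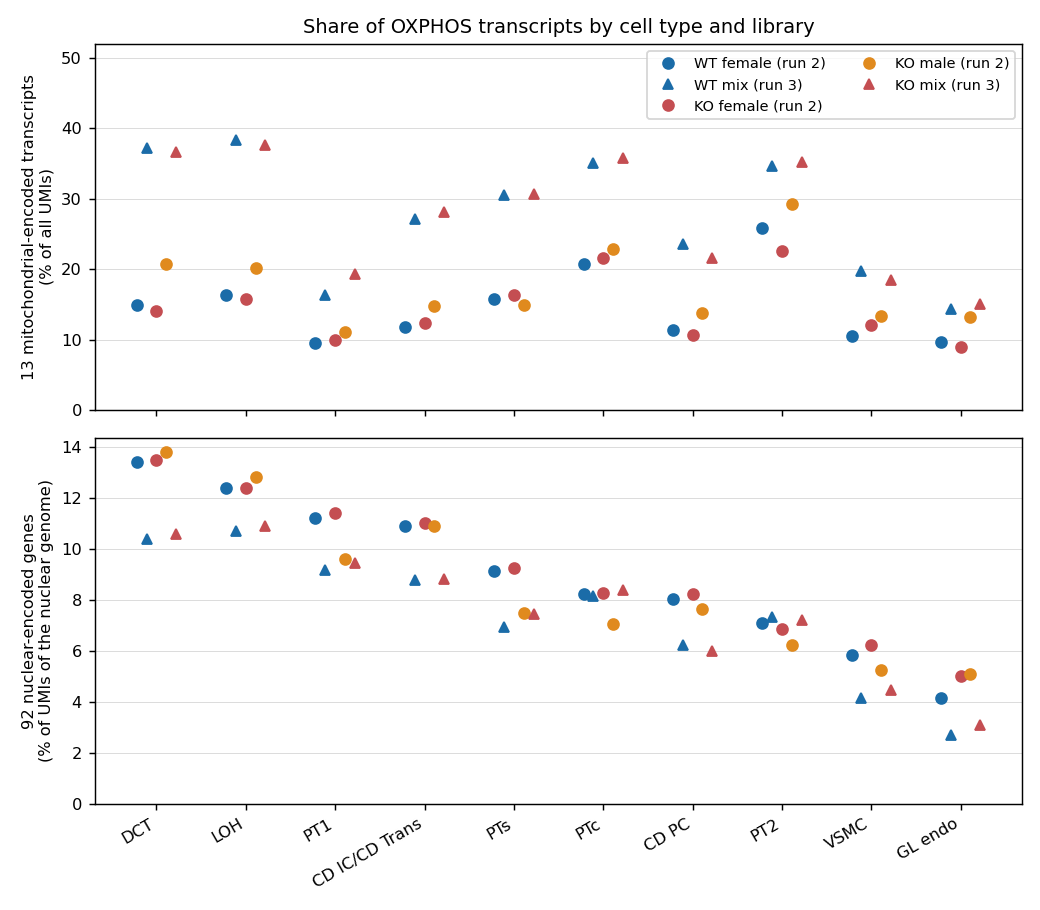
Share of all UMIs taken by the 13 mitochondrial-encoded members (upper panel, percent) and share of UMIs of the nuclear genome taken by the 92 nuclear-encoded members (lower panel, percent) by cell type, with 1 point for each library, triangles for run 3 and circles for run 2. The mix libraries of run 3 lie above the run 2 libraries in the mitochondrial-encoded share of every type plotted, while DCT and LOH lead the nuclear-encoded share of nuclear UMIs.

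UMIs of most subunits were counted in every cell type, and those of a few isoforms mainly in 1 or 2. Free RNA can add UMIs to any barcode, so a low level is not read as expression. Barcodes annotated as red blood cells, which hold no mitochondria once mature, held 975 to 1303 CPM of Cox4i1. The source of this Cox4i1 was not tested. Cox4i2, the isoform of the complex IV subunit Cox4 known from hypoxic and lung tissue, was seen in vascular smooth muscle cells (VSMC) at 10.5, 367, 82.3, 305 and 187 CPM, a mean of 190 ± 149 (SD, n = 5) that rests on 100 UMIs. Its levels were 35.5 CPM in the GL sc cluster, 5.32 CPM in GL endo and 0 UMIs in LOH. Its common partner Cox4i1 stood at 1416 ± 213 CPM (SD, n = 5) in VSMC and at 3300 ± 467 CPM in LOH. Ndufa4l2, a paralog of the complex IV subunit Ndufa4 that hypoxia is known to induce, was also led by VSMC and GL sc, with 347 ± 145 CPM (SD, n = 5) in VSMC, 183 CPM in GL sc and 17.7 CPM in GL endo. The spread in VSMC is wide, and a library held only 21 to 74 VSMC cells.

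Cox7a1, the heart and muscle isoform of Cox7a, was highest in intercalated and transitional cells of the collecting duct (CD IC/CD Trans), with 261 ± 88.0 CPM (SD, n = 5) against a median of 36.0 CPM over 18 types. Principal cells (CD PC) followed with 99.5 ± 61.4 CPM and LOH with 83.6 ± 13 CPM, 2 values that do not differ beyond their spread. Cox6b2, the testis isoform of Cox6b, stayed low everywhere, with a highest mean of 29.5 CPM in fibroblasts and 28.1 CPM in VSMC. The muscle isoforms Cox6a2 and Cox8b gave 27 UMIs each in all cells and entered no test. Atp5g1, 1 of 3 genes for the same c subunit of ATP synthase, stood at 2644 CPM in DCT, 2632 ± 481 CPM in LOH and 1327 ± 162 CPM in the straight proximal tubule (PTs). Sdhb, the iron-sulfur subunit of complex II, was highest in PT1 at 730 CPM, followed by DCT at 496 CPM.

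**Figure D2:**
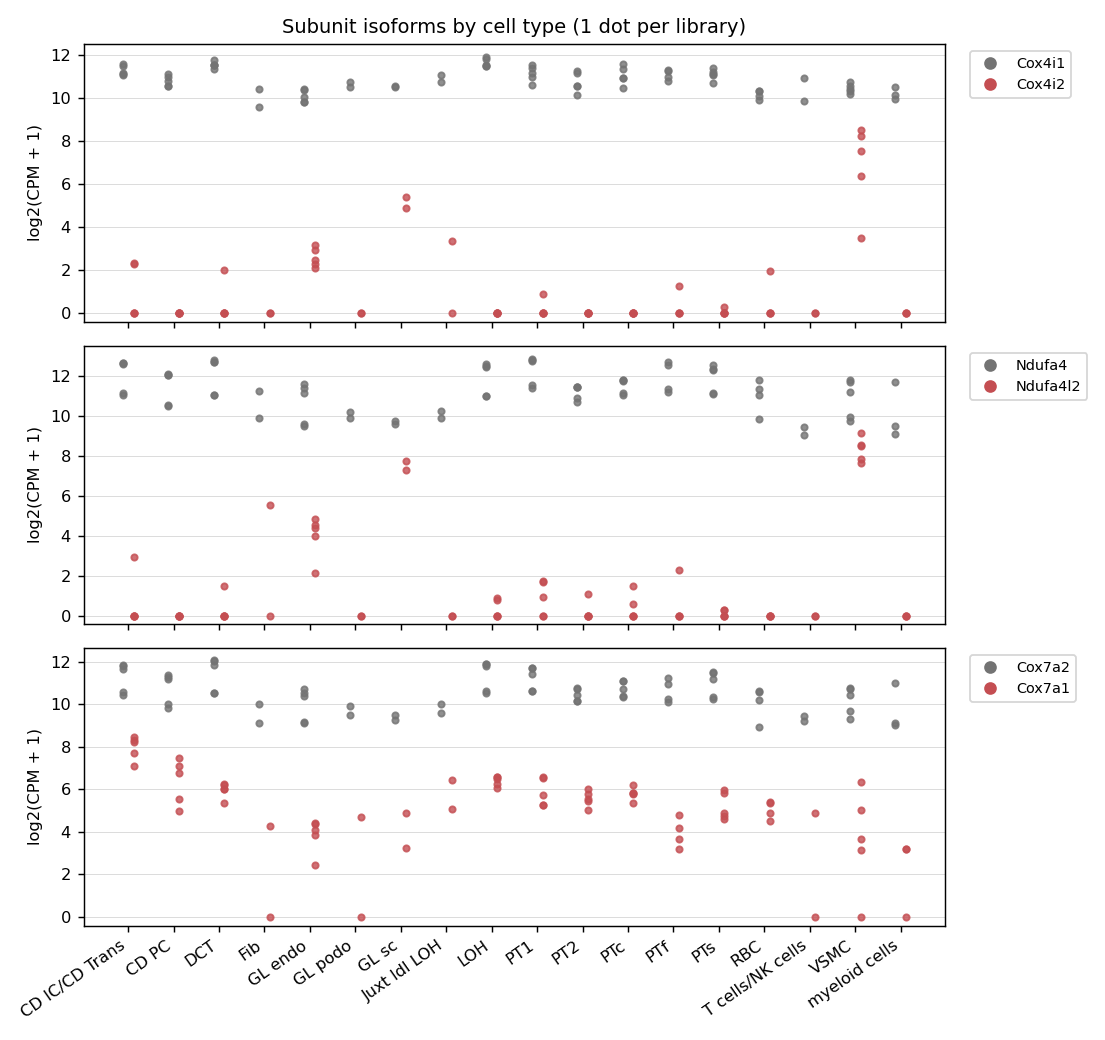
Levels of 3 restricted subunit isoforms (red) and their common partners (grey) by cell type on a log2(CPM + 1) scale, with 1 point for each library. Cox4i2 and Ndufa4l2 are highest in VSMC and near 0 in tubule cells, and Cox7a1 is highest in CD IC/CD Trans.

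The comparison of KO with WT asks whether the loss of Fame changed these genes. In summed counts per library and cell type, tested with edgeR over all genes of a type, 103 members could be tested in at least 1 of 11 types and 92 in all 11. None of the 1084 member and cell type pairs passed an adjusted p of 0.05, and none had an unadjusted p below 0.05. Over all genes the same fits called 0 of 68554 pairs (0%), and DESeq2 and limma-voom called no member either. With run as a block, which removes the difference between runs, edgeR again called 0 members. Unadjusted p was below 0.05 for 23 pairs, 13 of them in GL endo. Others included mitochondrial-encoded members in CD IC/CD Trans, such as mt-Nd4l (unadjusted edgeR p 0.00693) and mt-Atp8 (0.0241). The share of all genes below 0.05 in this fit is not given here, so these counts are not read as a result.

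The mitochondrial-encoded mRNAs had wide errors in this comparison. In PT1, mt-Nd1, a core membrane subunit of complex I, stood at 2158, 12430, 2350, 2881 and 12396 normalised CPM in the WT female, WT mix, KO female, KO male and KO mix libraries. Genotypes overlapped and the runs did not. The log2 difference KO minus WT for mt-Nd1 was -0.31 (SE 0.95) without a block and 0.16 (SE 0.16) with run as a block. For mt-Nd4l in PT1 the libraries read 2533, 471, 2628, 3021 and 1037 normalised CPM, and the log2 difference was 0.57 (SE 0.75), or 0.56 (SE 0.24) with the block. For mt-Atp8 in PT1 it was 0.56 (SE 1.14), or 0.32 (SE 0.16) with the block, and for Ndufa10, a supernumerary subunit of complex I, -0.37 (SE 0.44), or -0.18 (SE 0.17).

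In PTs the same held for mt-Nd3, mt-Co3, mt-Nd1 and mt-Nd2, with log2 differences of -0.78 (SE 0.99), -0.40 (SE 0.87), -0.45 (SE 1.01) and -0.27 (SE 0.75). With the run block these became -0.20 (SE 0.23), -0.031 (SE 0.14), 0.067 (SE 0.17) and 0.091 (SE 0.19). In the convoluted proximal tubule (PTc), mt-Nd4l, mt-Nd3 and mt-Nd1 differed by 0.35 (SE 0.47), -0.72 (SE 0.93) and -0.43 (SE 0.87), and with the block by 0.28 (SE 0.19), -0.11 (SE 0.21) and 0.054 (SE 0.18). The study lists these genes of PT1, PTs and PTc for this comparison, having chosen them on the same libraries. In these types the nuclear-encoded member with the lowest unadjusted p was an assembly factor of complex I. It was Ndufaf6 in PT1 (log2 difference -0.54, SE 0.56, edgeR adjusted p 1.0) and in PTc (log2 difference -0.50, SE 0.44, edgeR adjusted p 1.0). In PTs it was Ndufaf5 (log2 difference -0.55, SE 0.34, edgeR adjusted p 1.0). In PT2 it was Sdhc (unadjusted edgeR p 0.206), and in LOH Ndufaf3 (0.276). Ndufaf5 and Ndufaf6 were sparsely counted, with means of 12.1 and 22.5 CPM over the libraries.

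GL endo stood apart in sign but not in call. There, 94 of 98 members lay above 0 in KO, with a median log2 difference of 0.38 against -0.0035 over all 7043 genes tested, and 95 of 98 with the run block, with a median of 0.27. Haemoglobin mRNAs, which GL endo cells do not make, took 3.21% and 0.203% of UMIs there in the WT female and WT mix libraries and 6.77%, 5.15% and 0.151% in the KO libraries, and their part in the result was not tested. In the nuclear-encoded share of UMIs GL endo differed between genotypes by 0.832 percentage points (exact two-sided permutation p = 0.500, n = 2 and 3), and 0.1 is the smallest p this design allows. This test takes no account of the run. Within run 2 the WT female library stood at 3.76% and the KO female and KO male libraries at 4.57% and 4.42%, and within run 3 WT mix stood at 2.32% and KO mix at 2.62%, so KO lay above WT in both runs.

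Over all cells the mitochondrial-encoded share was 21.9% ± 8.60 in WT (SD, n = 2) and 20.8% ± 7.06 in KO (SD, n = 3), a difference of -1.01 points (exact permutation p = 1.0). The nuclear-encoded share differed by 0.255 points (exact permutation p = 0.800). Within run 2 the KO libraries lay 0.995 points above WT in the mitochondrial-encoded share, and within run 3 1.04 points above. The genotypes overlapped in both shares in each of the 9 cell types compared, namely PTs, PTc, PT1, PT2, LOH, DCT, CD PC, CD IC/CD Trans and GL endo.

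Whether the genotype difference in PT1 departed from that in PTs was tested as an interaction. None of 101 members passed in edgeR, against 1 of 9716 genes (0.0103%). In this fit, which holds no run term, no member had an unadjusted p below 0.05. The call depends on single libraries for mt-Nd4l, whose difference between both types was 1.13 (SE 0.22, edgeR adjusted p 0.00489) without the WT female library and 0.84 (SE 0.19, edgeR adjusted p 0.0210) without the KO mix library. The first leaves a single WT library, of run 3, whose spread is taken from the KO libraries, and the second leaves KO libraries of run 2 only, so genotype and run are partly confounded in both. With run by cell type as a further term and all libraries, again no member passed. Unadjusted p was then below 0.05 for mt-Nd4l (difference 0.33, SE 0.12, edgeR p 0.00782, adjusted p 0.991) and mt-Atp8 (0.31, SE 0.15). The same held for Ndufb3 (-0.31), Ndufa6 (-0.30), Sdhb (-0.28) and Ndufa10 (-0.32). The share of all genes below 0.05 in this fit is not given here, so these members are not read as differing between PT1 and PTs. With the sex label as a block, which leaves 1 residual degree of freedom, mt-Nd4l was also the 1 member called between genotypes, in CD IC/CD Trans, at a log2 difference of 0.49 (SE 0.10, edgeR adjusted p 0.0157), where 0.119% of all genes were called.

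**Figure D3:**
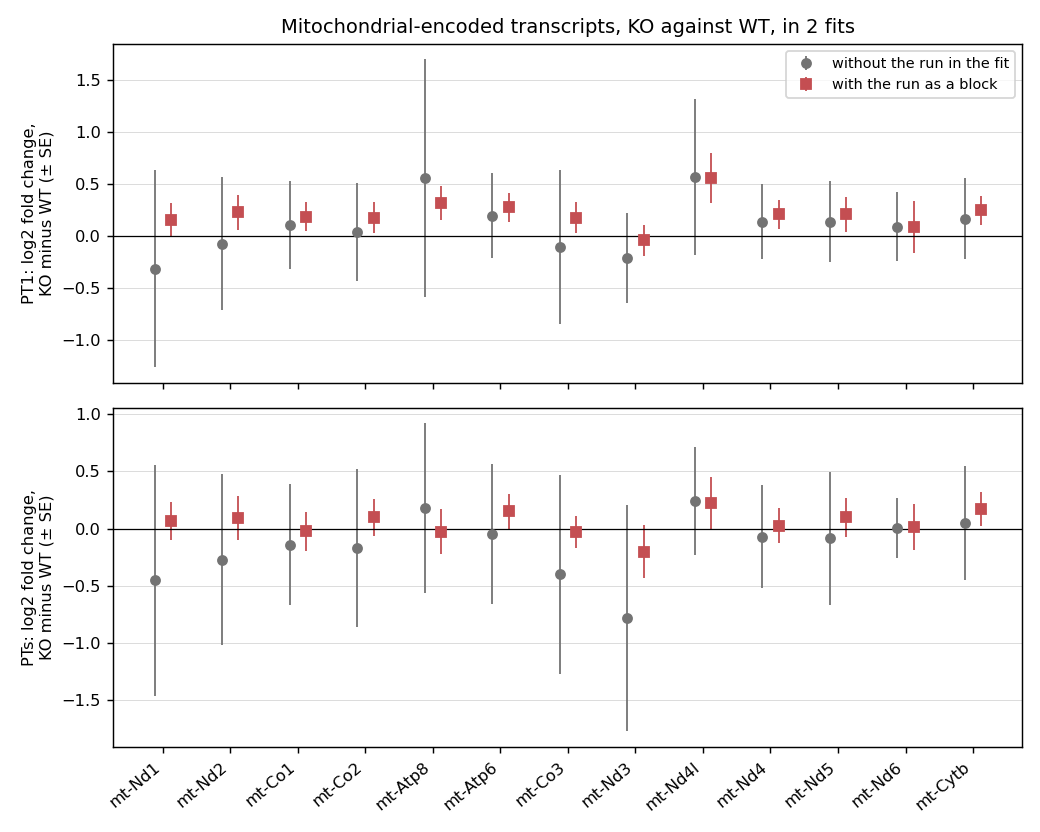
Log2 difference KO minus WT of the 13 mitochondrial-encoded members in PT1 (upper panel) and PTs (lower panel), with bars of 1 SE from edgeR, without the run in the fit (grey circles) and with it as a block (red squares). No value passed the threshold, and the bars are shorter with the block, for mt-Nd1 in PT1 from 0.95 to 0.16.

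The runs differed far more than the genotypes. Between run 3 (mix) and run 2 (single-sex), 572 of 1084 member and cell type pairs passed in edgeR (52.8%), 196 higher and 376 lower in run 3, against 19.1% of all 68554 pairs (9.42% higher and 9.63% lower). The count higher was 76 with cells of at most 25% mitochondrial UMIs, against 157 over the same 9 types without that limit, and 119 without the WT mix and 122 without the KO mix library. Mitochondrial-encoded pairs were called in 102 of 143 cases, 83 higher and 19 lower, and nuclear-encoded pairs in 470 of 941, 113 higher and 357 lower. By cell type the calls ran from 31 of 94 members in VSMC (21.4% of all genes) and 33 of 99 in PT2 (7.65%) to 69 of 99 in CD IC/CD Trans (27.3%) and 69 of 101 in LOH (25.1%). PT1 had 61 of 100 (23.4%), PTc 51 of 101 (13.8%), DCT 57 of 99 (16.2%), CD PC 58 of 98 (25.2%) and GL endo 56 of 98 (30.4%). PTs had 40 of 101 (7.85%), but 7 with genotype as a term, 7 without the WT female library, 8 without the KO female library, 73 without the KO male library and 0 with either of the mix libraries left out, where the lone run 3 library is assumed to vary like the others. The counts also rested on single libraries in PTc (31 without KO female, 30 without WT female, 13 with either of the mix libraries left out), in PT2 (20 without KO female, 56 without KO male, 11 without WT female, 9 without WT mix and 10 without KO mix), in PT1 (39 without KO mix, 37 without WT mix), in VSMC (18 and 16) and in GL endo (37 without WT mix). In CD IC/CD Trans, CD PC, DCT and LOH they moved by less than 1.5 times. In PTf, which had too few KO male cells, 47 of 94 were called over 4 libraries (21.2%).

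Among the mitochondrial-encoded mRNAs, mt-Nd1, mt-Nd3 and mt-Co3, a core subunit of complex IV, were higher in run 3 in all 11 types. In PTs, mt-Nd1 stood at 3841, 4370 and 4685 normalised CPM in the run 2 libraries and at 24338 and 21860 in the run 3 libraries, a log2 difference of 2.43 (SE 0.13, edgeR adjusted p 0.00214). Its median over the 11 types was 2.21, from 1.64 in GL endo to 2.93 in PTf. For mt-Co3 in PTs the libraries read 15463, 15705 and 15950 normalised CPM in run 2 and 64508 and 59522 in run 3. The median log2 differences were 2.08 for mt-Nd3 and 1.75 for mt-Co3. The groups did not overlap in either gene.

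Against this direction, mt-Atp8 was lower in run 3 in all 11 types, with a median log2 difference of -2.33 and a range of -3.59 to -1.40. In LOH it stood at 1025, 954 and 1146 normalised CPM in run 2 and at 224 and 268 in run 3 (log2 difference -2.07, SE 0.11, edgeR adjusted p 6.13e-14). The other short overlapping gene, mt-Nd4l, was lower in 7 of 11 types, with a median of -1.03, the lowest value of -2.74 being in GL endo. In LOH mt-Nd4l stood at 5272, 4690 and 6029 normalised CPM in run 2 and at 2687 and 4612 in run 3. The run 3 libraries differed from each other, with KO mix just below KO female of run 2. In LOH mt-Nd4l did not pass (log2 difference -0.54, SE 0.31, edgeR adjusted p 0.335). The minus-strand mRNA mt-Nd6 was lower in 1 type, CD IC/CD Trans (log2 difference -0.79, edgeR adjusted p 0.0480). With genotype as a term it did not pass there (edgeR adjusted p 0.0649). Its normalised CPM were 85.5 in WT female and 83.0 in WT mix, and 173, 123 and 64.7 in KO female, KO male and KO mix. In contrast, mt-Nd4, mt-Cytb and mt-Atp6 were higher in 3, 5 and 8 types.

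**Figure D4:**
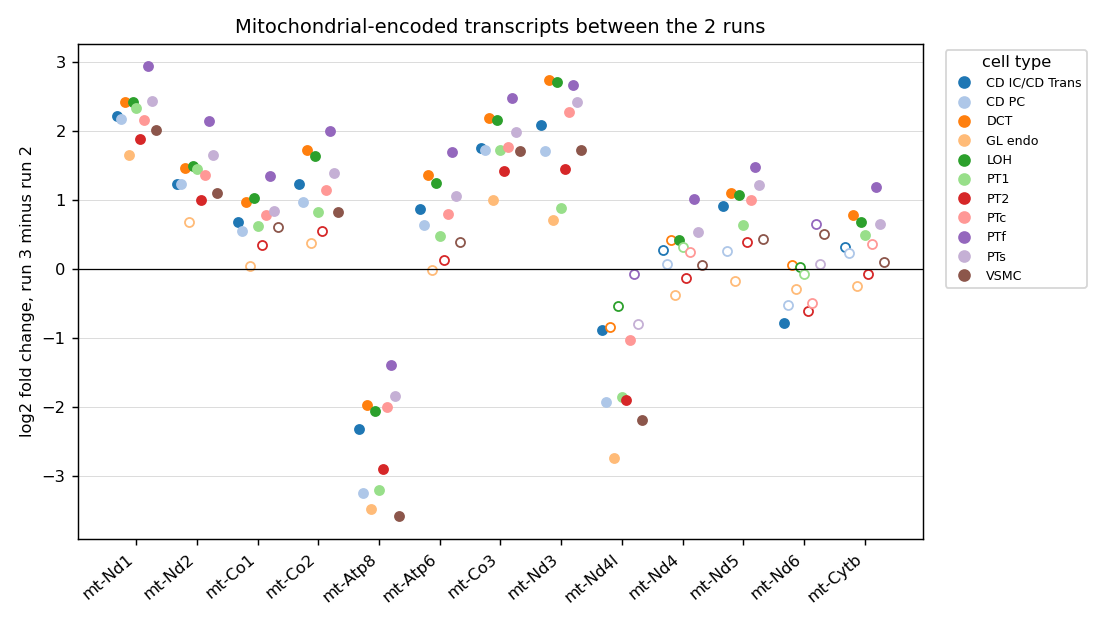
Log2 difference, run 3 minus run 2, of the 13 mitochondrial-encoded members, with 1 point for each cell type, filled where edgeR passed the threshold and open where it did not. Values of mt-Nd1, mt-Nd3 and mt-Co3 are above 0 in all 11 types and those of mt-Atp8 below 0 in all 11.

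The make-up of the mitochondrial mRNA pool, which does not depend on its size, showed the same contrast. In PTs, mt-Atp8 was 0.572%, 0.574% and 0.426% of mitochondrial UMIs in run 2 and 0.0644% and 0.0668% in run 3, and mt-Nd4l was 2.78%, 2.49% and 2.27% against 0.500% and 0.795%. By contrast mt-Nd1 made up a mean of 2.88% in run 2 and 6.97% in run 3, and mt-Co3 10.6% and 18.7% (exact two-sided permutation p = 0.1 for each, n = 3 and 2, the smallest possible). In PTs the runs did not overlap in 12 of 13 members. These shares are parts of the same total, so the members do not move independently. The count has no counterpart over all genes and is given as a description. Barcodes annotated as red blood cells (RBC), which hold no mitochondria once mature, held mitochondrial mRNAs too, with KO mix as the only run 3 library of at least 20 cells, so that no test was made. Their mt-Nd1 share was 2.34%, 2.30% and 2.40% in the run 2 libraries and 6.75% in KO mix, and their mt-Atp8 share 0.767%, 0.870% and 0.800% against 0.0196%, which rests on 2 UMIs. The share of mt-Nd3 did not differ in this way, with 0.383%, 0.426% and 0.312% against 0.392%. The mitochondrial share of all UMIs in these barcodes was 11.8 to 19.0%. Haemoglobin mRNAs moved with the run as well, from 0.300 to 0.620% of UMIs in PTs in run 2 to at most 0.0255% in run 3, and so did Malat1, a nuclear RNA, from 6.18 to 8.29% in LOH to 2.20 and 2.25%. Their part in the result was not tested.

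The nuclear-encoded members were called lower more often than higher, and members of 1 complex could differ in direction. Pairs called higher and lower numbered 31 and 125 of 330 for supernumerary subunits of complex I, 0 and 18 of 77 for its core, 7 and 10 of 69 for its assembly factors, 7 and 6 of 44 for complex II, 19 and 39 of 88 for complex III, 36 and 60 of 146 for complex IV and 13 and 99 of 187 for complex V. The following 13 nuclear genes were called lower in run 3 in all 11 types: Ndufa5, Ndufb3, Ndufb1-ps, Ndufa1, Ndufs4 and Ndufs5 of complex I, Uqcrb and Uqcrc2 of complex III, Ndufa4 of complex IV, and Atp5md, Atp5mpl, Atp5h and Atp5j2 of ATP synthase. No nuclear member was called higher in all 11. The share of all genes called in every type is not given here. Counts of members called in all 11 types, of either genome, are therefore not read as particular to these genes.

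Ndufa5, a supernumerary subunit of the peripheral arm of complex I, fell the furthest by its median log2 difference of -1.89. In LOH it stood at 1956, 1977 and 1950 normalised CPM in run 2 and at 502 and 537 in run 3 (log2 difference -1.91, SE 0.091, edgeR adjusted p 2.36e-14). For Atp5md and Uqcrb, small subunits of ATP synthase and complex III, the medians were -1.56 and -1.52. In contrast Uqcrc1, a core subunit of complex III, was higher in 10 types, with a median of 1.06, and in LOH it stood at 191, 191 and 194 normalised CPM in run 2 and at 489 and 412 in run 3. Its partner Uqcrc2 had a median of -1.15. Further members higher in run 3 were Ndufa6 (10 types, median 0.87), Cox5a (9 types, 0.95), Cox6a1 (9 types, 0.81), Ndufab1 (8 types, 0.63) and Cox5b (8 types, 0.61). Members with the NRF1 or ETS letters in the promoter had a median of -0.31 and those without -0.27.

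**Figure D5:**
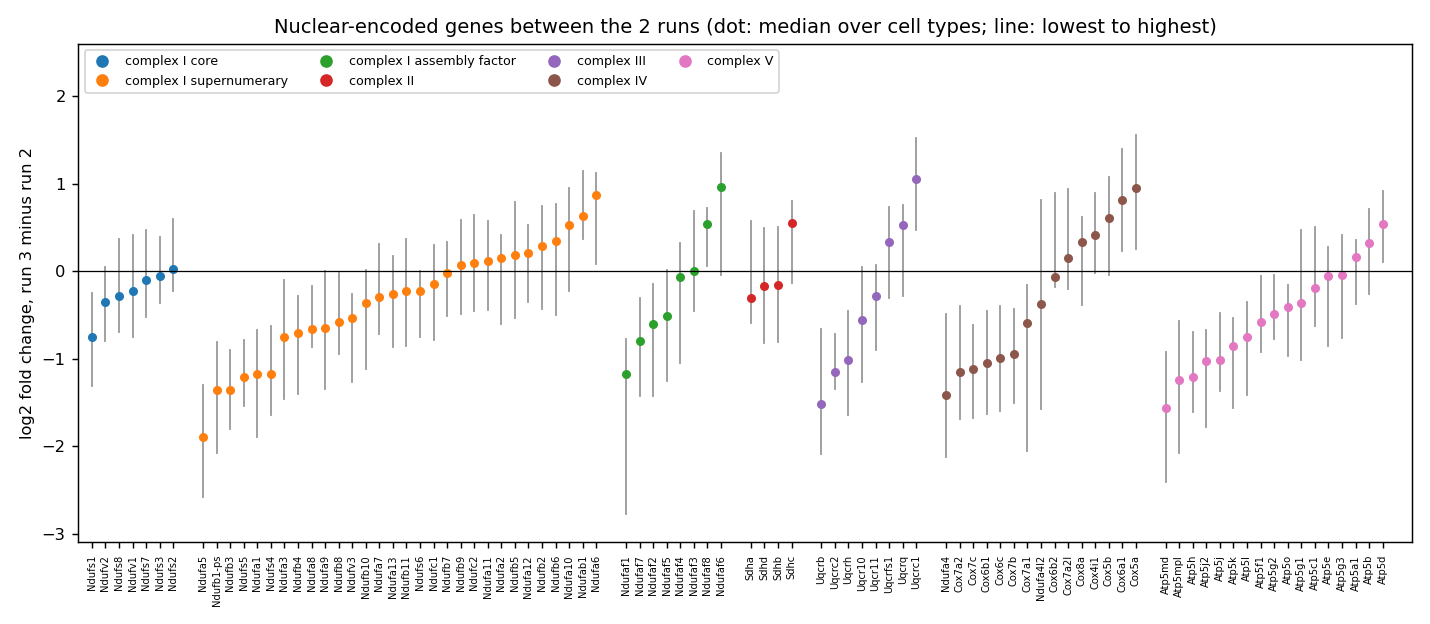
Log2 difference, run 3 minus run 2, of the nuclear-encoded members grouped by complex, where the dot is the median over cell types and the line runs from the lowest to the highest cell type. Genes such as Ndufa5, Atp5md and Uqcrb lie below 0 in all 11 types, and Uqcrc1 lies above 0 in all 11.

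With genotype as a term, 2 of the 14 members called lower in all 11 types were still called in every type, and all 14 stayed below 0 in every type. The 3 mitochondrial members called higher in all types stayed called. With cells of at most 25% mitochondrial UMIs, where 9 types could be tested, 2 of the 3 lay above 0 in all of them, and mt-Nd3 was at -0.032 in PT1. Without the WT mix or without the KO mix library none of the 17 was called in every type, and all kept their sign.

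Other mitochondrial genes were read from lists of related function. No gene of any list was called between genotypes. Between runs, of 272 pairs of 36 assembly factors 22 were higher and 35 lower in run 3 (21.0%, against 19.1% of all pairs), among them Cox20, a factor for Cox2 (lower in 11 types, median -1.64), and Cox14 (higher in 6 types). Factors of mitochondrial transcription and biogenesis gave 4 higher and 4 lower of 98 pairs (8.16%). Genes for the processing and stability of mitochondrial RNA gave 0 higher and 23 lower of 95 pairs (24.2%), with Slirp, which stabilises mitochondrial mRNAs, lower in 10 types and Hsd17b10, a subunit of mitochondrial RNase P, in 9. Cytochrome c and the carriers and channels gave 6 higher and 40 lower of 86 pairs (53.5%), with Vdac3 lower in 10 types and Cycs in 9. Pyruvate dehydrogenase and the citric acid cycle gave 10 higher and 29 lower of 183 pairs (21.3%).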

How the data were processed

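Kidney cells were profiled by 10x 3′ single-cell RNA sequencing. Per the study's methods, the authors aligned reads to mm10 with Cell Ranger 4.0.0 and predicted doublets with Scrublet. They removed genes in fewer than 3 cells and cells under 1000 counts or over 50% mitochondrial counts. They regressed out mitochondrial gene content and clustered with Seurat 3.2.2.9001. The deposited matrix holds raw UMI counts, and the deposited annotation holds cell types, libraries, runs and percent mitochondrial counts per cell, with a doublet score that was not used. Doublets were not removed here. Counts were summed here per library and cell type (at least 20 cells) and tested with edgeR 4.0.16 (TMM, filterByExpr, robust quasi-likelihood, two-sided, R 4.3.3), with Benjamini-Hochberg adjustment over all genes of a type at 0.05. DESeq2 1.42.0 and limma 3.58.1 were alternatives. Shares were compared with exact permutation tests over libraries. P-values measure the spread between 5 libraries, since nothing gives the animals behind each.

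The members and gene lists were chosen with earlier results of these data known. Named genes were all mitochondrial-encoded members, the most abundant per complex, restricted isoforms, called members (at most the 5 highest and 5 lowest per type), those with the lowest p, and those the study lists. Library numbers do not pair samples, but the female libraries share a run and sex label, as do the mix libraries. Deviations from the genotype means correlated over all genes by 0.53 to 0.81 in the female pair and 0.49 to 0.65 in the mix pair, so run served as a replicate block. The scripts were tested on simulated data.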

Additional observations from a re-analysis of the deposited data

How the results depend on the processing

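Of the results recomputed under other settings, the absence of genotype calls held under every setting run except the sex label as replicate block, which called 1 member. With the run as replicate block, the call stayed at 0 members. In the run comparison, members called higher fell from 196 to 76 with cells of at most 25% mitochondrial UMIs, where fewer cell types were tested, and ranged from 119 to 210 when 1 library was left out. The interaction count ranged from 0 to 1. The cause of these shifts was not tested.

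Genotype differences that were smaller than their SE without a block changed sign with the setting. Leaving out a WT library leaves WT in a single run, so genotype and run are then partly confounded. With the run block, the sex-label block and the run block with scaling by nuclear genes, mt-Nd1 was 0.16, 0.057 and 0.15 for PT1, 0.067, 0.015 and 0.064 for PTs, and 0.054, 0.019 and 0.042 for PTc, while mt-Nd2 in PTs was 0.091 and 0.087 under both run blocks. Leaving out 1 library gave, in PT1, -0.18 to 2.26 for mt-Nd4l, -1.52 to 1.46 for mt-Nd1, -0.31 to 3.07 for mt-Atp8 and -0.78 to 0.28 for Ndufa10. For PTs the values were -1.86 to 1.14 for mt-Nd3, -1.34 to 0.99 for mt-Co3, -1.64 to 1.44 for mt-Nd1 and -0.98 to 0.94 for mt-Nd2, and those of PTc -0.16 to 1.16 for mt-Nd4l, -1.66 to 1.16 for mt-Nd3 and -1.41 to 1.22 for mt-Nd1.

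Run differences that reversed with cells of at most 25% mitochondrial UMIs were mt-Co1 (-0.093), mt-Atp6 (-0.17), mt-Nd3 (-0.032), mt-Nd4 (-0.23), mt-Nd5 (-0.069) and mt-Cytb (-0.039) in PT1, and mt-Nd4 (-0.21), mt-Nd6 (-0.45) and mt-Cytb (-0.074) in PTs. With at least 2000 UMIs, mt-Nd4 (-0.29) and mt-Cytb (-0.071) reversed in PT1. For mt-Nd6, leaving out 1 library gave -0.23 to 0.10 in PT1 and -0.024 to 0.14 in PTs.

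Share differences KO minus WT, in percentage points, reversed within run 2 for the mitochondrial-encoded share over all cells (0.995), PTc (1.57), PT2 (0.0516), LOH (1.61), DCT (2.56), CD PC (0.782) and CD IC/CD Trans (1.74), and within run 3 over all cells (1.04), PTs (0.119), PTc (0.736), PT2 (0.594) and CD IC/CD Trans (0.906). The nuclear-encoded share reversed within run 2 over all cells (-0.370), PTs (-0.645), LOH (-0.0523), DCT (-0.169), CD PC (-0.156) and CD IC/CD Trans (-0.136), and within run 3 in PTc (0.103), CD PC (-0.0465) and CD IC/CD Trans (-0.0377). With cells of at most 25% mitochondrial UMIs the mitochondrial-encoded share reversed in PTc (0.512), PT1 (-0.572), DCT (1.66) and GL endo (-0.219), and the nuclear-encoded share in PTc (0.232), PT2 (0.358) and DCT (-0.455). That limit bounds the mitochondrial-encoded share itself. With at least 2000 UMIs PT2 gave 0.0691. For run 3 minus run 2, PTc gave -0.257 with cells of at most 25% mitochondrial UMIs, and the nuclear-encoded share gave 0.434 in PTc and 0.546 in PT2 among UMIs of the nuclear genome.

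Leaving out 1 library moved the mitochondrial-encoded difference KO minus WT over the range -7.09 to 5.06 over all cells, -9.98 to 4.96 for PTs, -8.31 to 6.09 for PTc, -2.85 to 3.96 in PT1, -5.56 to 3.13 in PT2, -13.8 to 8.17 in LOH, -13.3 to 8.94 in DCT, -8.31 to 3.95 in CD PC, -8.77 to 6.58 in CD IC/CD Trans and -2.06 to 2.71 in GL endo. The nuclear-encoded difference moved over the range -1.08 to 1.59 over all cells, -1.28 to 1.61 for PTs, -0.739 to 0.481 for PTc, -1.33 to 1.13 in PT1, -0.475 to 0.00658 in PT2, -1.24 to 2.56 in LOH, -1.68 to 3.24 in DCT, -0.911 to 1.46 in CD PC and -1.17 to 2.03 in CD IC/CD Trans. With 2 WT libraries, 1 in each run, the genotype comparison without a block is limited by the spread between runs.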

Other observations

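The male and the female KO library both belong to run 2, and 1 library of each allows no test. The nuclear-encoded members were lower in the male library for 76 of 88 genes in PTc (median log2 difference -0.33), 69 of 87 in PT1 (-0.19), 65 of 86 in PT2 (-0.19), 62 of 85 in CD PC (-0.16), 54 of 88 in PTs (-0.10), 48 of 86 in DCT (-0.071), 52 of 88 in LOH (-0.028) and 36 of 86 in CD IC/CD Trans (0.024). The mitochondrial-encoded members were higher in the male library for 13 of 13 genes in LOH (median 0.39) and DCT (0.58), 12 in PT1 (0.29) and CD PC (0.32), 11 in PT2 (0.42), 9 in CD IC/CD Trans (0.31), 7 in PTs (0.022) and 6 in PTc (-0.026). Over all genes tested the medians of these types lay between -0.014 and 0.0040, with 4563 of 9099 genes lower in PTc. Kap, an androgen-regulated mRNA of the proximal tubule, took 7.16% of UMIs in PTs of the KO male library and 0.0127% in the KO female library. Without Kap in the denominator, the nuclear-encoded share of nuclear UMIs in PTs was 9.24% in the KO female and 8.18% in the KO male library, and in PT1 11.4% and 10.2%.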
